A study of Mus musculus with 4 samples.

Results

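A total of 689 promoters of protein-coding genes were open in both WT and Med23-deficient hematopoietic stem cells (HSCs) although their DNA was poor in G and C. Each was a peak of the KO list on an autosome that shared at least 1 bp with a WT peak. The KO summit, the position of highest signal, lay within 1 kb of a protein-coding start site, and at most 50% of the 200 bp around that summit were G or C. Pairs of coding genes that start back to back within 1 kb on opposite strands were left out, which removed 49 of 738 peaks. The members were thus selected on the presence and position of peaks in both lists and on base composition, so these properties are descriptions and carry no test. They belonged to 670 genes and made up 5.91% of the 11657 shared peaks at coding starts, and 689 of the 36600 autosomal KO peaks.

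ATAC-seq, in which the Tn5 transposase inserts adapters into open chromatin, had been run on 5000 HSCs per sample (by the labels Lin−Sca1+cKit+, CD150+CD34−CD48−) sorted from adult C57BL/6 bone marrow. The study's methods for this assay name the same gate without CD34. The WT mice carried floxed Med23 alleles and no cre, and the KO mice carried the same floxed alleles together with Mx1-cre. Med23 is a subunit of Mediator, the complex that links transcription factors to RNA polymerase II. Mx1-cre is driven by an interferon-responsive promoter and was switched on with poly(I:C), itself an inducer of interferon, and it acts in blood cells and in other interferon-responsive tissues. The labels do not give the treatment of the ATAC-seq mice or their age. There were 2 samples for each genotype, but the labels of both samples name the same peak list, so 1 WT list was set beside 1 KO list and no difference below has a replicate check. Read depth is unknown, because the lists hold no read counts. The autosomal KO list had a median summit pileup of 19 reads and a median fold enrichment over local background of 7.41, against 18 reads and 6.38 in the WT list. Of 10 genes that mark stem cells, 7 had a promoter peak in each list, among them Kit, Mecom, Hlf and Meis1, while Ly6a, Slamf1 and Procr had none in either list. Of 5 granulocyte and monocyte markers, 0 had a KO promoter peak and 1 (S100a8) a WT one. The B cell markers Pax5 and Ebf1, the T cell marker Cd3d and the erythroid marker Epor also had a peak in both lists. Cells of another type in the sort were not measured separately, and fewer open cells cannot be told apart from less opening per cell.

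Most mammalian promoters lie in CpG islands, stretches of GC-rich DNA that escape DNA methylation and are open in most cell types. The remaining promoters are poor in CpG, more often carry a TATA box just before the start site, and tend to belong to genes with restricted or inducible expression, such as those of differentiated blood cells and of the interferon response. In blood cells such promoters are commonly bound by factors of the ETS family, among them PU.1, and by RUNX, GATA and C/EBP factors, whose recognition letters were looked for here.

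The sequences around the strongest and the most shifted summits show what these promoters looked like. They are reference sequence (GRCm38.p6, the build mm10), taken from the 200 bp around the KO summit, read 5′ to 3′ on the strand of the gene, and only the longest stretch outside exons of coding transcripts is given. Capitals mark matches to any of 12 short motifs on either strand (TATA box, ETS, PU.1, RUNX, GATA, AP-1, CRE, E-box, CCAAT box, GC box, interferon-stimulated response element and C/EBP). The first 4 belong to the members with the highest KO fold enrichment, and Clec4a2 had the highest KO to WT ratio among members with at least 40 reads in both lists together. The window of Zfp273 is also the strongest with a TATAAA. The window of Gabarap, with the lowest ratio among the same members, lay wholly in an exon and is not shown.
Gm14325, chr2:177840337-177840493, minus strand: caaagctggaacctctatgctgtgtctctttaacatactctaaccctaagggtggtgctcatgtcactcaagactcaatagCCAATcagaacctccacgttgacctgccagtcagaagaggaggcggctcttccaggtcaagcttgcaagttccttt
Gm14399, chr2:175142013-175142121, minus strand: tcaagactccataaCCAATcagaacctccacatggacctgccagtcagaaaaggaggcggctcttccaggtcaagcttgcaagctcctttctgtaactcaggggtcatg
Trim12c, chr7:104353363-104353531, minus strand: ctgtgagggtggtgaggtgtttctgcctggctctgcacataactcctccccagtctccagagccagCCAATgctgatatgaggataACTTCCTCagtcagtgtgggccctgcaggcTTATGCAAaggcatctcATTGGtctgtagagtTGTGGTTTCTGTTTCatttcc
Zfp273, chr13:67813690-67813739, plus strand: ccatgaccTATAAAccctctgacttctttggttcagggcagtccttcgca
Clec4a2, chr6:123123159-123123315, plus strand: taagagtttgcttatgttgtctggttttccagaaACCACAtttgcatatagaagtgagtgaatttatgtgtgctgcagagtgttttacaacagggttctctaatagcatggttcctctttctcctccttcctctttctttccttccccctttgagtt
The letters ccaat occurred in the first 3 windows, and the window of Trim12c held all of ETS, PU.1, RUNX, C/EBP and the interferon element within the bases shown. The next windows were chosen after their values were seen, Rgs18 for its density of blood motifs, Hist1h3a for the TATA box and paired CCAAT boxes of a histone promoter, Mef2c as the strongest member on the list of blood transcription factors, and Trim30a and Trim30b as near copies of each other.
Rgs18, chr1:144775436-144775630, minus strand: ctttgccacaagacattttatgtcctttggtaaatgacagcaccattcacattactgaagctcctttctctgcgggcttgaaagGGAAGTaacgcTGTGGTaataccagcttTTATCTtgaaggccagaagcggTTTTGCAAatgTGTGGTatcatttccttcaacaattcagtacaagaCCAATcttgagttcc
Hist1h3a, chr13:23762387-23762533, minus strand: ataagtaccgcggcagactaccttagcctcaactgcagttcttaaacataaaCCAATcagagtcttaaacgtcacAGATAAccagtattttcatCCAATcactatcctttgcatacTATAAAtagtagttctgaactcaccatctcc
Mef2c, chr13:83572107-83572306, plus strand: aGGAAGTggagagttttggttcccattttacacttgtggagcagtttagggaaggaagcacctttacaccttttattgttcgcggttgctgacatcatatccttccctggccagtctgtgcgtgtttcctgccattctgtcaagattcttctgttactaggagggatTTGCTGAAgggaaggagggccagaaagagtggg
Trim30a, chr7:104465220-104465419, minus strand: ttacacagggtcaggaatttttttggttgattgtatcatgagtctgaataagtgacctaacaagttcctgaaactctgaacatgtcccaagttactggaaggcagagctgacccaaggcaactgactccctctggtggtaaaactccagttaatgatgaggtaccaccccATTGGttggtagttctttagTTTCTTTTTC
Trim30b, chr7:104369896-104370095, minus strand: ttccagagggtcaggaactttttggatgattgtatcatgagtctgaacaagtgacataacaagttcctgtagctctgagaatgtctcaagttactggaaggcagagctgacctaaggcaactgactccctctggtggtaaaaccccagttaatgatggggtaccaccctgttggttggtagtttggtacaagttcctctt
The window of Rgs18, a regulator of G protein signalling in platelets, held 6 matches, 1 ETS, 1 GATA, 1 C/EBP, 1 CCAAT and both RUNX matches. Trim30a and Trim30b matched each other over 184 bases at 90.8% identity, yet the interferon element at the 3′ end of the Trim30a window had no match in the Trim30b window.

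GC-poor starts seldom had a summit shared by both lists. Here GC was taken around the start of the gene model and the summit could have any GC, so these starts are not the members. Starts with a peak in a single list count as without one. Of 20807 autosomal coding gene models, 5395 (25.9%) had at most 50% GC in the 200 bp around their start, and 804 of these (14.9%, 95% Wilson interval 13.98 to 15.9) had a shared summit within 1 kb. Without olfactory and vomeronasal receptor genes, which are expressed in sensory neurons, the share was 19.9% (800 of 4014). Above 50% GC, 10304 of 15412 starts (66.9%, 66.1 to 67.6) had one. The share increased with every step of GC, from 5.65% of starts with at most 40% GC through 20.8% between 45 and 50% to 82.8% above 65%. Intervals on shares here and below cover counting error over genes or peaks only, and neither are replicates.

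**Figure D1:**
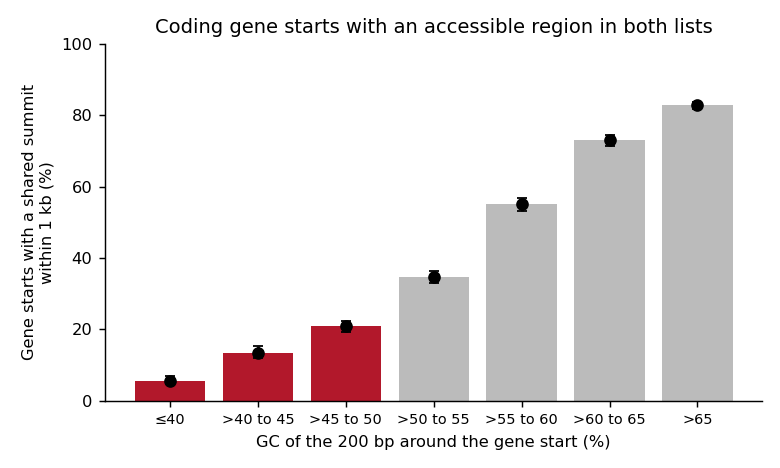
Share of autosomal coding gene starts with a summit shared by both lists within 1 kb, by GC of the 200 bp around the start. Bars and points give the share and error bars the 95% Wilson interval; red bars, at most 50% GC. The share climbs from 5.65% to 82.8%.

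The GC limit fell in a region of gradual change. At exactly 50.0% GC there were 63 members, with a median KO fold enrichment of 8.38 and median pileups of 22 reads in KO and 24 in WT. At 50.5% GC, just outside, there were 62 peaks with a median fold enrichment of 7.96 and median pileups of 23.5 and 24 reads. The strongest just inside were Trim12c (149 KO and 122 WT reads) and Tmem218 (168 and 126 reads), and just outside Cyp2j9 (150 and 124 reads) and N4bp2l2 (127 and 107 reads).

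The members were weaker and narrower than GC-rich promoters. Their median KO pileup was 22 reads (quartiles 15 and 38) and their median WT pileup 23 reads (14 and 36), against 32 reads in both lists at 9882 shared coding promoters above 50% GC. The median KO fold enrichment was 7.72 against 9.57, and the median KO peak width was 796 bp against 922 bp. At 8849 shared distal sites with the same GC limit, more than 1 kb from any coding start, the medians were 18 KO reads, a fold enrichment of 7.53 and a width of 567 bp. The members thus had pileups and widths between those of the other 2 classes. Single members ranged from 6 to 530 KO reads, from 255 to 3038 bp in width and from 31.0 to 50.0% in GC. Of all members 94 (13.6%) had a KO fold enrichment at or above the 90th percentile of all KO peaks and 38 (5.52%) one below the 10th.

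A KO promoter peak was also less often matched in WT when its DNA was GC-poor. Of 844 GC-poor KO promoter peaks, 689 (81.6%, 78.9 to 84.1) overlapped a WT peak, against 94.4% (93.9 to 94.8) of 10472 GC-rich ones. Below the median fold enrichment of the KO list the shares were 70.0% (65.7 to 74.0) and 83.6% (82.4 to 84.9), and above it 95.3% (92.8 to 97.0) and 99.5% (99.3 to 99.7). The same held from the WT side, with 82.8% (79.98 to 85.2) of 800 GC-poor and 93.7% (93.2 to 94.1) of 10546 GC-rich promoter peaks overlapping a KO peak. The GC-poor share was thus the lower one on both sides of the median.

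The summits lay more often upstream than downstream of the start. In 440 members (63.9%, 60.2 to 67.4) the summit was upstream, and the 100 bp before the start alone held 27.0% of all members. At GC-rich promoters 59.1% (58.1 to 60.1) of summits were upstream. The median distance from the start was 157 bp in members and 74 bp at GC-rich promoters, and 56.0% (52.3 to 59.7) against 78.5% (77.7 to 79.3) of summits lay within 200 bp. The KO and WT summits of a member were a median of 60 bp apart, and those of GC-rich promoters 45 bp. According to coding transcripts of the gene, 278 summits (40.3%) lay outside the gene, 275 (39.9%) in an intron, 127 (18.4%) in an untranslated exon and 9 (1.31%) in coding sequence. At GC-rich promoters the intronic share was 19.2%.

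**Figure D2:**
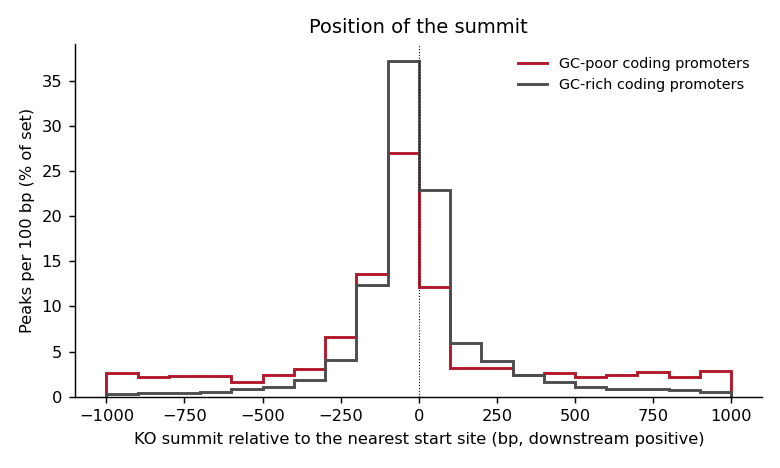
Position of the KO summit relative to the nearest coding start site, in bins of 100 bp, as a percent of each set. Members (red) and GC-rich promoters (grey) both peak in the 100 bp before the start, with 27.0% and 37.2% of summits, and the members have the heavier tails on both sides.

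Many members lay near internal start sites. In 206 members the coding start nearest to the summit was more than 1 kb from the first annotated start of the gene. Of these, 80.6% had the summit in an intron and 50.0% had it within 200 bp of that nearest start. Whether they act as promoters was not tested. Thus 70.1% (66.6 to 73.4) of members were at the first start or a start within 1 kb of it. Of GC-rich promoters 86.7% (86.0 to 87.3) were. In 171 genes there was both a GC-poor member and a GC-rich promoter peak, a median of 26815 bp apart (708819 bp in Fhit). The GC-rich peak had the higher KO fold enrichment in 117 of them (68.4%). In some close pairs, such as that of Srsf6 (1277 bp apart), both peaks were set beside the same WT pileup (82 reads), and no ratio was taken. Mef2c, a transcription factor of lymphoid and megakaryocytic cells, was an exception, as was Cd47. The GC-poor peak of Mef2c lay at chr13:83571843-83572725, and its nearest start was 68314 bp from the first. It had 166 KO and 172 WT reads, against 50 and 59 reads at the GC-rich promoter of Mef2c. The KO fold enrichments were 17.3 and 7.91. At Runx1, a master regulator of blood formation, the GC-poor peak (28 KO and 41 WT reads) lay 128799 bp from the GC-rich one (20 and 31 reads), and its KO fold enrichment of 4.65 was below the 6.25 of the GC-rich one although its pileups were higher. Cd47, whose protein protects cells from phagocytosis, had 77 KO and 64 WT reads at its GC-poor and 92 and 88 reads at its GC-rich promoter, but KO fold enrichments of 15.9 and 10.5. The GC-poor peak of Cd47 was at the first start and thus not internal.

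Most members were also poor in CpG. Their windows held a median of 4 CpG dinucleotides against 17 in GC-rich promoters and 2 in GC-poor distal sites, and the median ratio of observed to expected CpG was 0.35, 0.82 and 0.22. In 137 members (19.9%, 17.1 to 23.0) the ratio was 0.6 or more, the value often used for CpG islands, against 79.2% of GC-rich promoters. These members had a median KO fold enrichment of 8.69 and the other 552 one of 7.53.

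The motif content of the members was compared with that of both other classes. Both strands of the 200 bp window were searched for the letters GGAAGT of ETS factors, for GAGGAAGT of PU.1, which contain the ETS letters, for TGTGGT of RUNX factors, for AGATAA of GATA factors and for TTGCNNAA of C/EBP factors. The other searches were for TATAAA of the TATA box, for CCAAT of the box of that name, for GGGCGG of the GC box, for CACGTG of the E-box, for TGACTCA of AP-1, for TGACGTCA of CREB proteins and for the interferon-stimulated response element. The ETS letters were in 224 members (32.5%, 29.1 to 36.1), in 19.4% of GC-rich promoters and in 36.6% of GC-poor distal sites. RUNX letters were in 16.8% (14.2 to 19.8) of members, 7.52% of GC-rich promoters and 30.9% of distal sites. GATA letters were in 10.9% (8.77 to 13.4), 2.00% and 16.0%. Both RUNX and GATA letters were thus commoner in members than in GC-rich promoters and rarer than in distal sites of the same GC limit. The GC limit itself favours letters rich in A and T, such as AGATAA, in members over GC-rich promoters. The contrasts with GC-rich promoters are therefore descriptions only. PU.1 letters followed the same order, with 6.24% (4.67 to 8.30), 2.27% and 10.4%, and so did those of AP-1, with 5.22%, 2.22% and 8.43%. TGACGTCA was rare throughout, in 10 members (1.45%), and 6 of these 10 were Zfp genes.

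TATAAA was in 77 members (11.2%, 9.03 to 13.7), 2.15% of GC-rich promoters and 12.8% of distal sites, so that its frequency in members was close to that of other GC-poor DNA. In 10 members (1.45%, 0.79 to 2.65) a TATAAA lay 20 to 40 bases before the start, where a TATA box usually lies, against 78 of 9882 GC-rich promoters (0.789%, 0.633 to 0.984), and these intervals overlap. Among the 10 genes were Anxa1, Bpifb4, Crisp1, Hist1h3a, Hist1h4j, Ifi47, Mt1, Rgs1 and Rsbn1l, a group that holds histone, metallothionein and inducible genes. All 10 had a CpG ratio under 0.6, and 0 of the 137 members at or above it had one, which allows a share of up to 2.19% (3 counts).

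CCAAT, bound by the NF-Y complex, was the commonest of the 12 in members, with 34.0% (30.5 to 37.6), against 28.9% of GC-rich promoters and 22.1% of distal sites. It was also the shortest of the 12, and shorter letters occur more often in any DNA, so its rank is a description only. Its interval in members overlapped that of the ETS letters (29.1 to 36.1). GGGCGG, bound by Sp proteins, was in 9.72% of members and 62.9% of GC-rich promoters, a contrast that the GC limit itself favours. The interferon element was in 54 members (7.84%, 6.06 to 10.1), 1.57% of GC-rich promoters and 8.42% of distal sites, and C/EBP letters in 11.6%, 3.93% and 11.8%. For both, the GC limit likewise favours members over GC-rich promoters. The members with a CpG ratio of 0.6 or more differed from the rest. PU.1 letters were in 1 of 137 of them (0.730%, 0.129 to 4.02) and in 7.61% (5.68 to 10.1) of the others, and CACGTG, the E-box of Myc and USF proteins, in 13.1% (8.48 to 19.8) and 2.36% (1.38 to 3.99). A match says that the letters are there, not that the factor was bound.

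**Figure D3:**
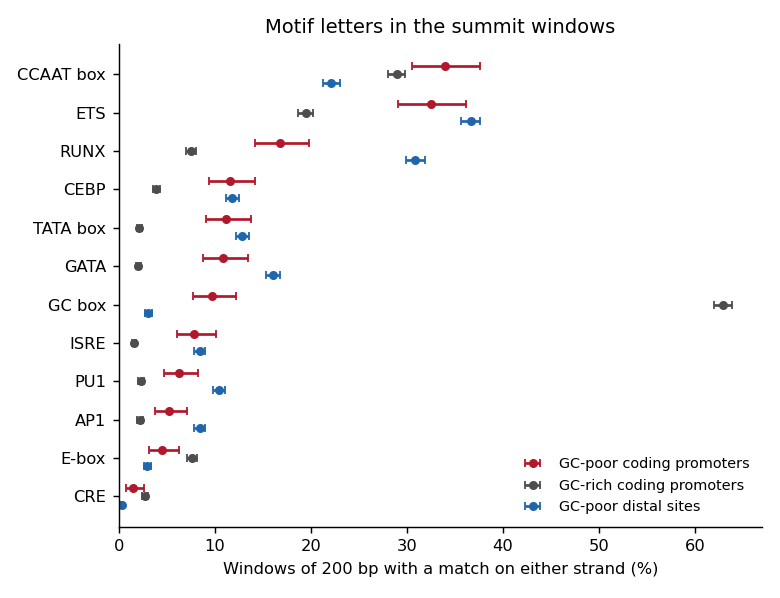
Percent of 200-bp summit windows with the letters of each motif on either strand, in members (red), GC-rich coding promoters (grey) and GC-poor distal sites (blue). Points give the share and bars the 95% Wilson interval; members lie near the distal sites for TATAAA and C/EBP and between the other 2 classes for RUNX, GATA and PU.1.

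Genes of several blood and immune lists had a member more often than coding genes in general. The lists of genes below were written with earlier results of these data known, so their counts describe them and support nothing further. Of 10873 coding genes with a shared promoter peak, 670 (6.16%, 5.73 to 6.63) had a member. Over 7 lists of leukocyte, platelet and interferon-related genes pooled, it was 56 of 206 (27.2%, 21.6 to 33.6), and these 56 were a small part of the 670 genes. Blood transcription factors and erythroid genes were not in this pool. Of 23 housekeeping genes with a shared promoter peak 0 had a member, which allows a share of up to 13.04% (3 counts). Of 57 blood transcription factors 7 did (12.3%, 6.08 to 23.2), namely Elf1, Erg, Hoxb4, Mef2c, Runx1, Runx2 and Tcf4. Of 35 surface receptors and adhesion molecules of leukocytes 11 did (31.4%, 18.6 to 48.0), and this interval overlapped that of the transcription factors.

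The ratios compared below rest on the pileups at the summits. In 642 members the region held exactly 1 peak of each list, and the KO pileup was divided by the WT pileup, each over the genome-wide background of its list. The log2 of this ratio had a median of 0.17 over all 28117 shared regions of this kind. All values below are relative to that median and are called relative log2 ratios, with 95% exact binomial intervals of the pair of pileups that cover counting error only. A ratio at least 1.5-fold from the median was called.

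The members as a whole had a ratio close to that of all shared regions. Their median relative log2 ratio was -0.017 (interval of the median -0.08 to 0.02), with quartiles at -0.28 and 0.20, against -0.08 at GC-rich promoters and 0.07 at GC-poor distal sites. The ratio was at least 1.5-fold higher in KO for 39 members (6.07%, 4.48 to 8.20), where 7.56% of all regions were called. It was at least 1.5-fold lower for 66 members (10.3%, 8.16 to 12.9), where 8.11% of all regions were called. On the deposited fold enrichments in place of pileups, 16 members were called higher and 39 lower, where 3.13% and 6.04% of all regions were called. Ratios of small pileups scatter more. Among regions with fewer than 40 reads in both lists together, 14.9% (11.3 to 19.6) of 281 members and 11.9% of all regions were at least 1.5-fold lower. With 40 to 79 reads it was 9.30% (6.10 to 13.9) of 215 members and 7.30% of all regions, and with 80 reads or more 2.74% (1.07 to 6.83) of 146 members and 2.30%. Within each of these classes the interval of the members for lower calls included the share of all regions. For higher calls it did so except at 40 to 79 reads. There 4.19% (2.22 to 7.76) of members and 7.88% of all regions were called higher. Of the 453 members at the first start 11.9% (9.25 to 15.2) were at least 1.5-fold lower, and of the 189 at another start 6.35% (3.67 to 10.8).

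By the stricter rule that the binomial interval excludes the median, 10 members (1.56%) were above, where 1.91% of all regions were, and 9 members (1.402%) below, where 1.54% were. Both shares were thus no higher than among all regions. The 10 were Clec4a2, Fcgr1, Cd33, Gbf1, Pik3cg, Glipr1, Nat2, Fbxo40, Gm10801 and Lars, and the 9 were Lin28b, Zfp365, Gabarap, 3300002I08Rik, Rsph4a, H2-Eb1, Rps23, Hist1h3a and Trim30d.

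The members with the highest ratios are given first, in part chosen after their values were seen. Clec4a2, an inhibitory C-type lectin of myeloid cells, had 54 KO and 24 WT reads (chr6:123122837-123123618), a relative log2 ratio of 1.09 (0.37 to 1.85). Fcgr1, the high-affinity receptor for IgG, had 27 and 11 reads, a relative log2 ratio of 1.21 (0.15 to 2.37). Cd33, a sialic acid-binding receptor, had 58 and 32 reads, with a relative log2 ratio of 0.78 (0.13 to 1.45). All 3 ratios were past the called fold, from WT pileups of 11 to 32 reads. The starts nearest to the Clec4a2 and Cd33 summits lay 16888 and 11257 bp from the first starts of these genes. On fold enrichments Clec4a2 (0.60) and Fcgr1 (0.86) stayed past it, while Cd33 (0.44) did not. Gbf1, an exchange factor for small GTPases at the Golgi, had 73 and 41 reads (0.75, 0.18 to 1.34). Pik3cg, the catalytic subunit of phosphoinositide 3-kinase gamma that acts downstream of chemokine receptors, had 72 and 43 reads (0.66, 0.10 to 1.24). For Crisp1, a secreted protein of the male tract, and Samsn1, a signalling adaptor of leukocytes, the pileups of 33 and 17 and of 31 and 16 reads gave 0.87 each with intervals that included the median. On fold enrichments Crisp1 (0.64) stayed past the called fold, while Gbf1 (0.57), Pik3cg (0.42) and Samsn1 (0.49) did not.

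The lowest ratios belonged to genes of varied function. Gabarap, a ubiquitin-like protein of autophagosomes, had 15 KO and 32 WT reads (chr11:69990951-69991683), a relative log2 ratio of -1.18 (-2.17 to -0.25). The uncharacterized 3300002I08Rik had 31 and 60 reads (-1.04, -1.71 to -0.39). Rsph4a, a radial spoke protein of motile cilia, had 19 and 34 reads (-0.92, -1.81 to -0.07). Both H2-Eb1, a class II MHC chain, with 22 and 38 reads (-0.87, -1.70 to -0.08), and Nop58, a core protein of small nucleolar RNPs, with 16 and 28 reads (-0.89, -1.87 to 0.05), were also among the lowest. On fold enrichments 3300002I08Rik (-0.78) stayed past the called fold. Gabarap (-0.53), Rsph4a (-0.34), H2-Eb1 (-0.51) and Nop58 (-0.56) did not. Lin28b, an RNA-binding protein of fetal HSCs, had the lowest ratio of all members, -1.50 (-2.79 to -0.34), from 9 KO and 24 WT reads, and is named because its value was seen.

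**Figure D4:**
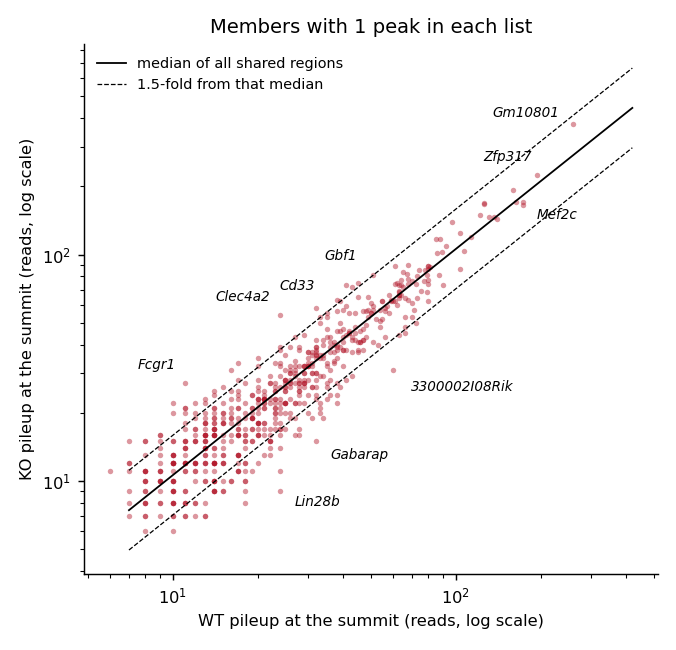
KO against WT pileup at the summit (reads, log axes) for the 642 members with 1 peak in each list. The solid line is the median ratio of all shared regions and the dashed lines lie 1.5-fold from it; most points fall between the dashed lines, and scatter narrows with pileup.

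Surface receptors of leukocytes gave 11 members from 35 genes with a shared promoter peak, Cd200r1, Cd47, Cd48, Cd53, Cd69, Cd84, Cd86, Clec12a, Emcn, Ptprc and Tlr4. Their relative log2 ratios ran from -0.93 (Cd69) to 0.22 (Cd84) with a median of 0.11. Of these 0 were at least 1.5-fold higher and 1 lower, where 7.56% and 8.11% of all regions were called. Tlr4, the receptor for lipopolysaccharide, had 82 KO and 67 WT reads, and Clec12a, an inhibitory lectin, 40 and 37. Cd53, a tetraspanin, had 49 and 48 reads, and Cd86, a costimulatory ligand of T cells, 27 and 22. Ptprc, which encodes the pan-leukocyte phosphatase CD45, had only 17 and 23 reads. Cd48, for whose protein the sorted cells were negative, had 8 and 7 reads, the lowest pileups of the list. The letters GAGGAAGT were in 3 of these 11 windows and those of RUNX in 3.

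Genes of immune signalling and the cytoskeleton gave 16 member peaks of 15 genes, from 51 with a shared promoter peak (29.4%, 18.7 to 43.0). The ETS letters were in 12 of the 16 windows, against 32.5% of all members, and those of RUNX in 6. The median relative log2 ratio was 0.009, with 3 peaks at least 1.5-fold higher (Samsn1, Pik3cg and Ptpn22) and 1 lower (Arhgap25, 8 and 13 reads). Of all regions 7.56% were called higher and 8.11% lower. On fold enrichments the 3 higher ones had 0.49, 0.42 and 0.29, all short of the called fold. Ptpn22, a phosphatase that dampens T cell receptor signalling, had 53 KO and 33 WT reads (0.60, -0.05 to 1.27). Rgs18 had 81 and 79 reads, Dock10, an exchange factor for small GTPases, 48 and 44, and Fyb, an adaptor of integrin signalling, 39 and 39 at its stronger peak. Fyb, like Glipr1, had a pair of member peaks at different starts, and the peaks of Glipr1 differed, with 75 and 45 reads at one (0.65, 0.10 to 1.22) and 53 and 70 at the other (-0.48, -1.03 to 0.05). Among members in none of these lists, Spp1, which encodes osteopontin, had 62 and 39 reads (0.59), and Casp1, the inflammatory caspase, 55 and 35 (0.57).

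Of 23 platelet and megakaryocyte genes with a shared promoter peak 6 had a member, and their median relative log2 ratio was -0.03. Gp1ba and Gp5, subunits of the von Willebrand factor receptor, had 35 KO and 30 WT and 16 and 17 reads. Tbxas1, thromboxane synthase, had 26 and 15 reads (0.71, -0.26 to 1.73), the 1 value past the called fold. On fold enrichments it had 0.49, short of that fold. Of all regions 7.56% were called higher. Plek, pleckstrin, had 21 and 20 reads. Of 15 mature myeloid genes 5 had a member (33.3%, 15.2 to 58.3), with Fcgr1 and Lyz2 at least 1.5-fold higher and 0 lower, where 7.56% and 8.11% of all regions were called. Lyz2, lysozyme, had 15 and 9 reads (0.65, -0.63 to 2.03), Igsf6 13 and 10, Ms4a6c 20 and 23, and Anxa1, annexin, 20 and 26. Apart from Fcgr1 the intervals of this group included the median.

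Few members came from the remaining lists. Of 10 lymphoid genes 3 had a member, among them Cd3d (20 KO and 33 WT reads, -0.80, with its summit 897 bp past the nearest coding start, which lies 4037 bp from the first) and Satb1 (31 and 27 reads, 0.12), and the RUNX letters were in all 3 windows. Of 32 genes for cytokine and chemokine receptors and ligands 2 had one (6.25%, 1.73 to 20.1), P2ry14 (27 and 25 reads) and Il18rap (16 and 20 reads). Of 14 erythroid and mast cell genes 2 had one, Gypc (30 and 32 reads) and Epb42 (14 and 13 reads). Among 13 genes the study names with a shared promoter peak, 1 had a member, Mt1, a metallothionein, with 17 and 24 reads (-0.58, -1.57 to 0.38). Among the transcription factors Hoxb4 had 23 and 17 reads (0.35, but -0.08 on fold enrichments), Elf1 22 and 29 (-0.48), Erg 23 and 21 (0.05) and Runx2 12 and 10 (0.18). Runx1 was lowest at -0.63 (-1.38 to 0.10), and all 7 intervals included the median.

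Interferon-stimulated and nucleic acid sensing genes gave 17 member peaks of 16 genes, from 49 with a shared promoter peak (32.7%, 21.2 to 46.6). The interferon element was in 9 of the 17 windows (52.9%, 31.0 to 73.8), against 7.84% of all members, at Gbp2, Ifi203, Ifi204, Ifi206, Iigp1, Mndal, Trim30a and Trim30d. The relative log2 ratios were spread around a median of -0.01, with 1 of 16 at least 1.5-fold higher and 4 lower, where 7.56% and 8.11% of all regions were called. Samd9l had 39 KO and 24 WT reads (0.62, -0.15 to 1.42). The lower ones were Ifi44 (11 and 19 reads), Ifi204 (14 and 24 reads), Gbp6 (13 and 22 reads) and Trim30d (44 and 63 reads, -0.60, -1.19 to -0.02). Trim30a had 78 and 68 reads, Trim30b 102 and 86, and Aim2, a sensor of cytosolic DNA, 26 and 20. The ratios of the group thus lay on both sides of the median, and among those named the interval of Trim30d alone excluded it. The poly(I:C) used with Mx1-cre acts through this pathway, and how either genotype of this assay was treated is not in the labels.

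Gene families with many members were grouped by symbol after the values had been seen. Zinc finger genes named Zfp, most of which encode DNA-binding repressors, gave 42 of the 305 with a shared promoter peak (13.8%, 10.4 to 18.1). They were stronger than the rest, with a median KO fold enrichment of 12.97 against 7.53 for the other members, a median KO pileup of 42 reads against 22, and 20 of 42 at or above the 90th percentile of KO peaks. Their summits lay a median of 49.5 bp from the start, 88.1% of them within 200 bp. Zfp317 had 224 KO and 194 WT reads, Zfp273 109 and 92, Zfp85 90 and 68, and Zfp994 117 and 85. Of 40 with a ratio 28 were above the median of all regions, 0 at least 1.5-fold higher, which allows a share of up to 7.5% (3 counts), and 3 lower, and their median was 0.10. Of all regions 7.56% were called higher and 8.11% lower. On fold enrichments 25 of the 40 Zfp ratios were above, with a median of 0.08. The ETS letters were in 21 and the CCAAT letters in 20 of the 42 windows, while PU.1 letters were in 0. Other members of the 10 strongest by KO fold enrichment were Gm14325 (104 and 107 reads), Gm14399 (57 and 49), Trim12c, Tmem218, Lars, a leucyl-tRNA synthetase (139 and 97 reads, 0.44, 0.05 to 0.83), and Hsd17b12, an enzyme of fatty acid elongation (147 and 131).

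Joined where neighbours were at most 250 kb apart, 57 of 689 members (8.27%) lay in rows of 4 or more, some of them of unrelated genes. The longest row was 13 Zfp promoters at chr13:67128153-67813790, with KO fold enrichments from 7.91 to 20.4 and relative log2 ratios from -0.45 to 0.50. The next was 9 promoters of Trim genes and Olfr646 at chr7:104104034-104507912, with a median relative log2 ratio of 0.04. A row of 8 at chr13:23465672-23762434 held Btn1a1, Btn2a2 and 6 histone genes. Of 36 histone genes named Hist with a shared promoter peak 11 had a member (30.6%), and 7 of the 11 windows held CCAAT and 4 TATAAA. The Hist1h3a peak had 50 KO and 72 WT reads, -0.61 (-1.16 to -0.07), but 0.06 when the deposited fold enrichments were compared instead. Hist1h2bb had 89 and 61 reads (0.46, -0.02 to 0.96) and Hist3h2ba 22 and 10 (1.06, -0.08 to 2.30). C-type lectins named Clec gave 6 of 11 genes, and all 6 ratios were above the median on pileups, from 0.03 (Clec12a) to 1.09 (Clec4a2), and 4 of 6 on fold enrichments. The 4 ribosomal protein members, Rpl23a, Rpl32, Rps23 and Rps26, were all below it on pileups, from -0.64 to -0.24, and 3 of 4 on fold enrichments. Of 10 Hist ratios 5 were above the median on pileups and 8 on fold enrichments.

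**Figure D5:**
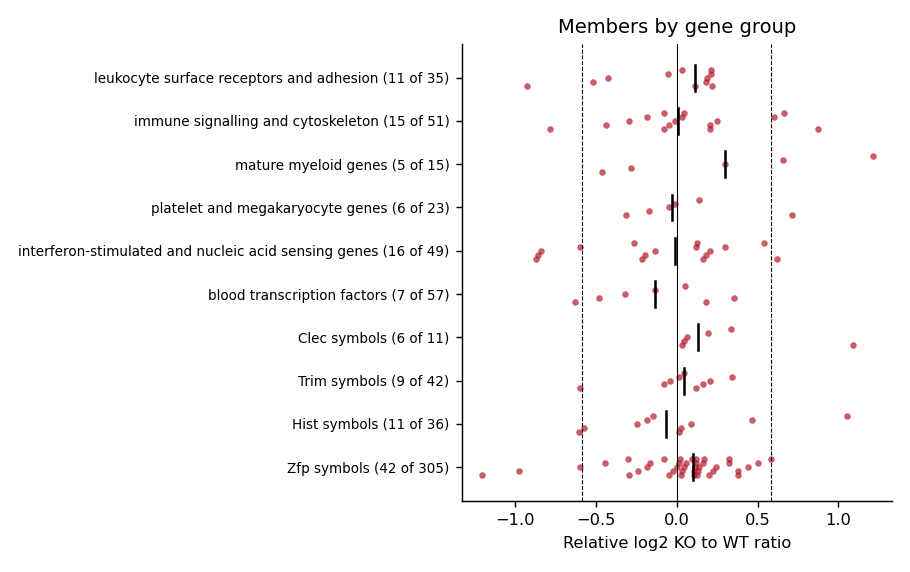
Relative log2 KO to WT ratio of each member with 1 peak in each list, by gene group. Black ticks mark group medians and dashed lines the 1.5-fold limits; numbers in brackets give the genes with a member of those with a shared promoter peak. No group median lies past the limits.

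Clustered families bring near-identical promoters, at which a short read can be placed in more than 1 locus. A second copy of the window in the reference, at 95% identity or more over at least 190 bases, was found for 36 members (5.22%, 3.80 to 7.15) and for 73 GC-rich promoters (0.739%, 0.588 to 0.928). Among them were 4 of the 10 strongest members, Gm14325, Gm14399, Trim12c and Zfp994, as well as Crisp1, Samd9l, Trim30d, Ifi203 and Ifi204. Between members, 21 windows matched another member at 80% identity or more over at least 150 bases, 9 of them Zfp genes. Gm14325 matched Gm14403 over 197 bases (95.9% identity), and Zfp273 matched Zfp85 over 196 bases (88.3%). How the study treated reads with several placements is not given in the sources used here, and values at these members are uncertain for that reason. The highest pileups of all members were at Gm10800 (530 KO and 342 WT reads) and Gm10801 (377 and 260 reads), adjacent gene models on chromosome 2 with only 34.5% and 32.5% GC and fold enrichments of 9.15 and 5.36, so that their local background was high. The relative log2 ratio of Gm10801 was 0.45 on pileups and -0.21 on fold enrichments.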

How the data were processed

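ATAC-seq peak lists of 4 samples, 2 per genotype, were used, with 1 list per genotype. By the submitters' processing notes and the study's methods, the authors used Trim Galore for trimming, Bowtie2 for alignment (mm10), Picard for duplicates and MACS2, without a fragment model, for peaks. Versions, and whether replicates were pooled, are not given in the sources used here. The deposited lists give fold enrichment, a ratio of summit pileup to local background, and −log10 p and −log10 q. The deposited display score, made by the authors' caller, was not used. Summit positions in the separate deposited summit lists were identical for all 37639 KO and 37919 WT peaks.

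Pileup and background were solved from the authors' fold enrichment and −log10 p under the caller's Poisson model. A whole-number pileup matched within 0.001 for 99.99% of peaks. Recovery was also run on simulated lists made with the same model, which checks the code but cannot show that the deposited values follow that model. The lowest background, over the 1000 peaks with the smallest values, was 1.13 in KO and 1.19 in WT. Ratios used no pseudocount. Start sites came from coding transcripts of GENCODE M21, and sequence from GRCm38.p6. Copies were found with BLAST 2.17.0; other steps used Python 3.11.15, pandas 2.3.3 and scipy 1.17.1.

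Members, gene lists and motifs were chosen with earlier results of these data known. Named members were the 10 with the highest KO fold enrichment, the 5 highest and the 5 lowest ratios with at least 40 reads in both lists together (361 members), up to 5 per gene list by KO fold enrichment, and the strongest on each side of the GC limit. Other names are given because their values were seen, or complete a count. No test between conditions was made, since there is 1 list per genotype. Alternatives are given in the closing section. A few members and markers are not reported here.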

Additional observations from a re-analysis of the deposited data

How the results depend on the processing

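No paired analysis was possible because both replicates of a genotype share 1 peak list. For the same reason leaving out a replicate was not run. The median relative log2 ratio of the members stayed within its interval under every setting tried, from -0.04 to 0.02. The raw pileup ratio could not move it, because it differs from the reported ratio by a constant that the centring removes. The number of members was 227 with GC at most 45%, 1575 with at most 55%, 352 where both peaks reached −log10 q of 10 and 418 with summits within 100 bp. Members at least 1.5-fold higher and lower numbered 18 and 23 at 45% GC, 76 and 128 at 55%, and 13 and 18 at the q limit. The GC limit does not enter the shares of all regions called, 7.56% and 8.11%. No such share was taken at the q limit or with close summits. These are counts without the number of members that had a ratio, so they are not comparable with those shares. With the start of the gene model only, 21 were higher, and with summits within 100 bp 30 were lower. When fold enrichments replaced pileups, a setting added after the values were seen, 16 were higher and 39 lower, and the sign of Hist1h3a turned to 0.064. In all, the sign turned in 135 of 642 members (21.03%), 2 of them called on pileups, and among those named in Hoxb4 (0.35 to -0.08), Anxa1 (-0.46 to 0.09), Mef2c (-0.13 to 0.09) and Rgs18 (-0.05 to 0.16), besides Gm10801, Gm14325, Gbp2, Rps26 and others. The median log2 ratio before centring was 0.066 on raw pileups and 0.26 on fold enrichments, against 0.15. Beyond the smaller or larger number of members, the cause of these shifts was not tested.

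The median KO fold enrichment was 8.18 within 500 bp of a start, 8.06 with GC over 100 bp, 7.13 at 45% GC, 8.43 at 55%, 10.7 at the q limit, 8.33 with 50% overlap and 8.76 with close summits. The median width was 929.5 bp at the q limit and 830 bp with 50% overlap. The upstream share was 69.1% within 500 bp, 74.1% at the q limit and 70.1% with close summits. The share at the first start was 65.2% at 45% GC, 74.0% at 55% and 75% at the q limit. With gene-model starts this share has no value of its own. Without windows that have a copy, also added later, 36 were higher and 64 lower. Of 36 motif shares in other windows, 27 left the interval of the main share, 5 of them around the WT summit. Small pileups limit the ratios of single members.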
